A study of Acomys cahirinus and Mus musculus with 10 samples.

Results

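The data described here are the RNA-Seq comparison of house mouse (*M. musculus*) ear tissue 5 days after a punch through the pinna (D5) with uninjured ear tissue (D0). All 23023 genes of the authors' table for this comparison were taken, of 24092 gene numbers found in at least 1 of the 4 *M. musculus* tables, 1 for each of D5, D10, D15 and D20 against D0. The study punched 4 mm holes in the ears of sexually mature female mice of the outbred CD1 strain and collected a ring of tissue reaching about 1 mm proximal of the margin, with 3 animals per time point. The D0 group is ear tissue without a hole, and the D5 group carries the label fibrotic ear tissue. No transgene, drug or diet separates the groups, all animals are of 1 strain and 1 sex, and an age in weeks is not given in the sources used here. The same series holds the spiny mouse *Acomys cahirinus*, which is not analysed here. The comparison asks which genes differ in level between the punched and the uninjured ear at an early stage of a wound that, in this species, heals with a scar.

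A wound in mammalian skin passes through overlapping phases. Platelets and a fibrin clot close the vessels, neutrophils and then macrophages enter and clear debris, keratinocytes at the edge change their keratins and cover the gap, and fibroblasts and new vessels fill the bed with granulation tissue that is rich in collagen. The pinna adds to this a sheet of elastic cartilage, thin striated ear muscles, fat, nerves and hair follicles with sebaceous glands, so a ring of ear tissue holds RNA of all these cell types. In such bulk tissue, fewer cells of a type and less RNA per cell cannot be told apart.

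Values are normalized counts per library, that is, read counts divided by a size factor that puts the libraries on a common scale. They are not divided by gene length, so a sum or a rank over genes is one of counts and not of molecules. The deposited table gives ratios, from which the group means of all 23023 genes were recovered. The values of the 3 D0 libraries were recovered for all genes, and those of the 3 D5 libraries for 8148 genes with few reads (a mean of at most 790). Where a D5 mean is given without an SD, the D5 libraries could not be separated. The 3 values of a group are listed in the order of the libraries' size factors, which carries no meaning beyond that. The D0 libraries held 5922743, 6905179 and 7873749 reads on genes, and the summed group means were 7716931 at D0 and 7993235 at D5. A gene is called changed where the deposited posterior probability of differential expression was at least 0.95, and log2 changes are D5 over D0. The defining markers of the tissue were all detected at D0, with means of 15520 for *Krt5*, 14788 for *Krt14* and 36865 for *Krt10* (epidermis), 8152 for *Col1a1* (dermis), 177 for *Col2a1* (cartilage), 6412 for *Acta1* (striated muscle) and 113 for *Adipoq* (fat).

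Several of the genes with the largest rises belong to families of near-identical copies, and reads of the study's 50-base length can then fit more than 1 of them. The first 150 coding bases of the keratin genes *Krt6a* (chr15:101694099-101694248, minus strand) and *Krt6b* (chr15:101680074-101680223, minus strand) are shown as an example, from the GRCm38 (mm10) annotation and found in the deposited reference, with the 2 bases that differ in capitals.
Krt6a: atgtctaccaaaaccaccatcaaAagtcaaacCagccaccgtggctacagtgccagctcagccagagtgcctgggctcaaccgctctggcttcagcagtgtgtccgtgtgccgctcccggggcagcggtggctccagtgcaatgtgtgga
Krt6b: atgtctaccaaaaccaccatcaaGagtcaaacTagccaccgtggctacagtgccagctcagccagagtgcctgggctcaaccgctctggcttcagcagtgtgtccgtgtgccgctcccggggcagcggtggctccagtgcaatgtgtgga
Over the whole transcripts, 972 of the 2209 windows of 50 bases in *Krt6a* also occur in *Krt6b*, where they make up 44.4% of the windows. The late cornified envelope genes *Lce3e* and *Lce3f*, which encode small proteins of the outermost skin layer, share 41.4% and 41.1% of their windows. The authors' counting divides such reads between copies by an estimate, so the split between *Krt6a* and *Krt6b*, and between members of the *Lce3* group, is uncertain, whereas their sum is less so. *Krt14* and *Krt16* share less, with 188 windows of 1669 and 1567.

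The ear at D5 differed from the uninjured ear in 6917 of 23023 genes (30.0%), of which 3791 (16.5% of all genes) were higher and 3126 (13.6%) were lower. The gene lists described here were chosen with earlier results of these data known. Among those with most of their members higher were wound-edge and cornified epidermis, macrophages, interferon response, fibrillar collagens and glycolysis. The lists of collagen folding, provisional matrix, endoplasmic reticulum chaperones, mitosis and endothelium were others. The list of mature striated muscle had nearly all members lower. The D5 mean lay outside the range of the 3 D0 libraries for 6908 of the called genes, and also for 9236 of the 16106 genes not called. With a log2 change of at least 1 in size asked for in addition, 1688 genes were higher and 1388 lower. Shares of all genes include those with few reads, which were called less often. Of the 15310 genes with a mean of at least 10, 6738 were called. The median log2 change of these 15310 genes was 0.02.

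**Figure D1:**
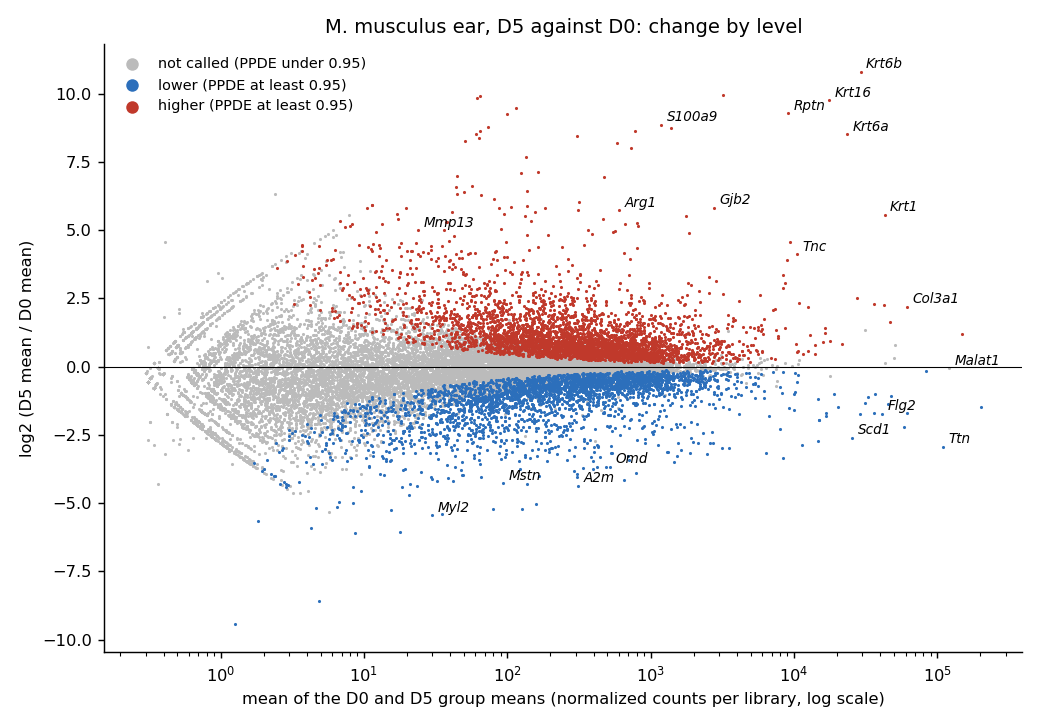
Each point is a gene, with the mean of the D0 and D5 group means in normalized counts per library on a log axis and the log2 ratio of D5 to D0 on the vertical axis. Red points were called higher, blue points lower and grey points not called. *Krt6b* (10.81) and *Krt16* (9.76) stand at the upper right, *Ttn* (-2.94) is far below 0 at a high level, and *Malat1* (-0.06) lies near 0.

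Keratin and cell envelope genes were among the largest rises. *Krt6b* rose from 23.9, 23.6 and 50.3 in the D0 libraries to a D5 mean of 58314, a 1789-fold change. *Krt16*, its usual partner keratin in migrating and rapidly dividing keratinocytes, was at 25.3, 28.9 and 67.4 at D0 and at 35221 at D5, an 869-fold change. *Krt6a* was at 123, 123 and 139 at D0 and at 46661 at D5. Each D0 library lay far under the D5 mean for all 3 keratins, which were chosen as large rises in the same libraries. *Rptn* (repetin, a protein of the cell envelope, on chromosome 3) rose from 29.1 ± 11 (SD, n = 3) to 18123, and *Sprr1b*, a small proline-rich envelope precursor, from 6.52 ± 2.26 to 2787. *Stfa3* (3.95 to 1558), *BC100530* (6.57 to 6436) and *BC117090* (3.97 to 1153) belong to a cluster of stefin genes, whose products inhibit cysteine proteases. The cells in which they rose were not tested. A transcript counted as *BC100530* also matches *Stfa1*. *BC100530* and *BC117090* share 23.5% and 27.2% of their windows, so their separate values are uncertain too. *2610528A11Rik* went from 1.75 to 616. *S100a9*, a member of the neutrophil list, completes the 10 with the largest rises among calls whose mean reached 10 over both groups and 1 in each. Genes with next to no reads at D0, such as *Cxcl5*, *Lce3e* and *Lce3f*, are left out by that limit.

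Of the 29 measured genes on the list for basal and wound-edge keratinocytes, 19 were called higher, 6 lower and 4 not called, with a median log2 change of 0.83. The summed level of the list was 58319 to 63570 in the D0 libraries and 277148 at D5. *Krt14* and *Krt5*, the keratin pair of the basal layer, rose 4.76-fold (14788 ± 1212 to 70354) and 1.78-fold (15520 ± 922 to 27677). *Krt17* rose from 585 ± 119 to 5121. The members that fell included *Krt15*, a keratin of resting basal cells and of the follicle bulge, which was at 4224, 2948 and 3057 at D0 and at 791 at D5. *Serpinb2*, a protease inhibitor, fell 1.65-fold. *Areg*, a ligand of the epidermal growth factor receptor, could be read in each library. It was at 3.92, 4.44 and 0.984 at D0 and at 30.2, 49 and 36.4 at D5, with no overlap. *Mmp3*, a protease that cuts several matrix proteins, rose 4.74-fold.

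The 65 genes of the cornified envelope and barrier contained 51 that were called higher, 6 lower and 8 not called. Their median log2 change was 2.09, or 1.97 with the 1 gene listed at 0 in a group set at its bound and 0.52 over the members whose names the study's supplementary table gives, and their sum was 249535 to 276111 in the D0 libraries and 447732 at D5. *Krt1*, a keratin of the layers above the base, rose from 1772, 1970 and 1581 to 84089 (47.4-fold). Its partner *Krt10* was at 36865 ± 568 at D0 and at 64096 at D5 and was not called (posterior probability 0.9126). *Flg* (profilaggrin), whose product bundles keratin filaments in the granular layer, rose 23.5-fold from 766 ± 228 to 18009. *Hrnr* (hornerin) rose 3.14-fold, *Lor* (loricrin) 2.69-fold and *Ivl* (involucrin) 1.78-fold. In contrast, *Flg2*, a relative of *Flg*, fell from 58306, 69897 and 62100 to 19195, and *Krt77* fell from 1793 ± 693 to 508. The envelope list therefore did not move as a block. By the authors' estimate, *Lce3e* and *Lce3f* each had under 1 read in all D0 libraries together and D5 means of 123 and 128, which makes them at least 110-fold and 114-fold higher when the D0 group is set at 3 reads.

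Junction genes of the epithelium were divided. *Gjb2* (connexin 26) rose 56-fold, from 78.3, 88.9 and 122 to 5396. *Gjb6* (connexin 30) rose 125-fold from 7.54 ± 3.73 to 941, and *Gja1* (connexin 43) rose 6.43-fold. The tight junction genes *Cgn* (cingulin, 914 ± 30.1 to 346) and *Marveld3* (97.2 ± 12.1 to 30.5), fell. Over the list of 23 gap and tight junction genes, 8 were higher, 6 lower and 9 not called, with a median of 0.19, which turned to -0.28 over the members the supplementary table names.

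White blood cell genes formed the next group. Of 17 neutrophil genes with a value, 7 were higher, 1 lower and 9 not called. The median log2 change was 2.53, or 1.71 with the 3 genes listed at 0 in a group set at their bound. It was higher over the 8 members with a mean of at least 10, as given below with the processing. The sum of all 17 was 397 to 428.2 in the D0 libraries and 4930 at D5. *S100a9* and *S100a8*, whose products form calprotectin and which stressed keratinocytes also make, supplied most of it. *S100a9* was at 1.31, 2.22 and 11.8 at D0, a mean that 15 reads support (95% Poisson interval of the mean 2.86 to 8.43, counting error only), and at 2368 at D5. *S100a8* was at 1.31, 0 and 15.7 and then at 1462. *Trem1*, a receptor of neutrophils and monocytes, had no read in any D0 library and 58.3, 59 and 130 at D5, at least 73.5-fold higher, with a limma adjusted p of 3.8e-08. *Csf3r*, the receptor of the neutrophil growth factor G-CSF, rose 5.79-fold and *Cxcr2*, the receptor of CXC chemokines that recruit neutrophils, 1.44-fold, while *Mmp9*, a gelatinase stored in neutrophil granules, was at 10.4, 7.78 and 12.8 at D0 and at a mean of 7.54 at D5 and was not called. *Hdc*, the enzyme that makes histamine, rose from 9.83 ± 1.66 to 150. It is also on the mast cell list and is counted in both.

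Among 24 genes of acute inflammation, 13 were higher, none lower and 11 not called, with a median of 1.68. *Il1b*, the gene of the cytokine interleukin 1 beta, was at 3.92, 5.56 and 9.84 at D0 and at 357 at D5. *Saa3*, an acute phase protein, was at 0 in each D0 library and at 38.8, 189 and 136 at D5, at least 108-fold higher. The low-count gene *Il6* was at 0, 1.11 and 0.984 at D0 (2 reads) and at 5.39, 18.3 and 7.57 at D5, a ratio of 14.9 with a counting interval of 3.71 to 123. *Tnf* was at 32.4 ± 4.47 at D0 and at 35.8 at D5 and was not called. *Il1f9*, an interleukin of the IL-36 group made by keratinocytes, rose 2.17-fold and *Il13ra1*, a receptor chain for interleukin 13, 1.55-fold. The 22 chemokine genes had 11 higher, 2 lower and 9 not called, with a median of 1.75. *Cxcl5* and *Cxcl2*, which draw neutrophils, each had 1 read at D0 and means of 231 and 101 at D5, ratios of 704 (counting interval 111 to 24495) and 308 (48.4 to 10743). *Cxcl1* was at 5.22, 6.67 and 3.94 at D0 and at 9.71, 30.7 and 25.7 at D5 (limma adjusted p 0.0037). *Cxcl12*, a chemokine of fibroblasts and endothelium, rose 3.03-fold and *Pf4*, a chemokine of platelets and some macrophages, 3.74-fold. The 2 that fell were the eotaxins *Ccl11* (75.7 ± 3.95 to 21.4) and *Ccl24* (34.5 ± 15.4 to 9.99 ± 6.3), which attract eosinophils.

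Macrophage genes had the highest share of calls among the leukocyte lists, 92.1% beside 30.0% of all genes. Of 38, 31 were higher, 4 lower and 3 not called, with a median of 1.91 (0.50 over the members named in the supplementary table alone). The lists differ in level, so their shares are not ranked on equal terms. Of the 38 macrophage genes 37 had a mean of at least 10, and of the 17 neutrophil genes 8. The macrophage sum was 6076 to 6989 in the D0 libraries and 18898 at D5. *Arg1* (arginase 1) rose 53-fold, from 17, 26.7 and 23.6 to 1189. The co-receptor gene *Cd14* was at 15.7, 15.6 and 17.7 at D0 and at 201, 262 and 262 at D5, with no overlap and a limma adjusted p of 1.1e-09. *Lyz2* (lysozyme) rose 6.1-fold, *Cd68* 3.45-fold, *Adgre1* (F4/80) 3.09-fold and *Csf1r*, the receptor that macrophages need to survive, 2.31-fold. *Lyve1*, found on lymphatic endothelium and on some resident macrophages, rose 4.76-fold. *Retnla*, a marker of alternatively activated macrophages, went the other way, from 43.1, 46.7 and 15.7 at D0 to 0, 0.83 and 0.757 at D5, 66.5-fold lower with a counting interval of 15.7 to 491. The count given for *Cx3cr1* (283 ± 51.2 to 82 ± 12.7, lower) also holds reads of the neighbouring muscle gene *Xirp1*, so its direction cannot be assigned to macrophages.

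Of 22 interferon-stimulated genes, 18 were higher, none lower and 4 not called, with a median of 1.75. All 22 had a D5 mean above the range of the D0 libraries. Over the whole table the D5 mean left that range, in either direction, for 6908 called genes and for 9236 of the 16106 genes not called. *Isg15*, a ubiquitin-like modifier, was at 13, 10 and 9.84 at D0 and at 44.2, 70.6 and 50 at D5. *Oasl1*, of the oligoadenylate synthetase family, was at 1.31, 0 and 0.984 and then at 17.3, 18.3 and 34.8. *Ifit1* rose 7.43-fold, *Mx1* 3.05-fold, *Irgm1* 2.16-fold and *Stat2*, a transcription factor of the interferon response, 1.66-fold. *Oas1a* rose 24.5-fold from 3.08 ± 5.33 to 75.3, and a transcript counted as *Oas1a* also matches *Oas1g*. The 16 complement genes were mixed, with 7 higher, 2 lower and 7 not called and a median of 0.39. *C5ar1*, the receptor for C5a, was at 24.8, 5.56 and 26.6 at D0 and at 147, 117 and 123 at D5. *Cd93*, found on endothelium and myeloid cells, rose 3.83-fold, and *C1s1* and *C1ra*, proteases of the classical pathway, rose 2.1-fold each. A transcript counted as *C1ra* also matches *C1rb*. *C3* was at 2082 ± 478 at D0 and 1379 at D5 and was not called. *Cfd* (factor D or adipsin, made largely by fat cells) fell from 84.9, 108 and 142 to 22.7, 26.6 and 17.4, and *Cd55*, an inhibitor of complement, fell 2.67-fold.

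Lymphocyte genes gave a smaller and divided picture. The 19 T cell genes had 3 higher, 4 lower and 12 not called, a share of calls of 36.8% beside 30.0% of all genes. Of the 19, 16 had a mean of at least 10, a level at which 6738 of 15310 genes were called, a larger share than over all genes. The list had a median of 0.47 (0.17 with the 1 gene listed at 0 in a group at its bound). *Cd4* rose from 31.3, 34.4 and 33.4 to 228, 119 and 140, and *Icos*, a costimulatory receptor, from 6.53, 5.56 and 9.84 to 39.9, 26.6 and 68.9. CD4 is also found on some dendritic cells. *Cd3e*, part of the T cell receptor complex, was at 58.7, 35.6 and 72.8 at D0 and fell to 20.5, 11.6 and 36.4, groups that overlap. *Cd3g* (69.9 ± 23.2 to 35.7 ± 15.7) and *Cd3d* (29 ± 4.25 to 20.8) were not called. *Trdc*, the constant chain of the gamma delta T cell receptor that resident epidermal T cells of mice carry, fell 2.93-fold from 94.4 ± 27.9 to 32.2. *Gata3*, which epidermis also uses, fell 2.59-fold. The summed level of the list was 1976 to 2140 in the D0 libraries and 1200 at D5, and *Gata3* alone, at 1526 and 588, is the largest part of that sum. The 7 B cell genes had 1 called (14.3% beside 30.0% of all genes), *Blk* (3.92, 0 and 1.97 to 5.39, 35.7 and 24.2, higher). *Cd79a* and *Cd79b* had means under 5 in both groups, so the list median of -1.42 rests on few reads. It was -0.29 with the 1 gene listed at 0 in a group at its bound, and 3.47 with the 1 member whose mean reached 10. Of 9 mast cell genes, 5 were higher and none lower with a median of 1.68, among them the proteases *Tpsb2* (47, 36.7 and 51.2 to 162, 149 and 145), *Cpa3* (83.7 ± 9.82 to 269) and *Tpsab1* (9.12 ± 7.44 to 65.8). The 9 genes of Langerhans and dendritic cells had 1 higher, 1 lower and 7 not called, a share of 22.2% called beside 30.0% of all genes. *Cd207* (langerin), the marker of epidermal Langerhans cells, fell 3.03-fold from 130, 144 and 152 to 46.9, and *Ccr7*, which guides dendritic cells to lymph nodes, rose from 2.82 ± 1.88 to 17.3. *Epcam* was at 461 in both groups. The class II gene *H2-Eb1* was at 19.6 in 1 of the D0 libraries and at 816 and 897 in the others, so its D0 mean of 578 ± 485 rests on libraries that differ, and it was not called. Red cell and platelet genes had 3 higher and 7 not called of 10, a share of 30.0% higher beside 16.5% of all genes. The largest log2 change of the list, 1.90, was that of *Pf4*, which some macrophages also make. The red cell gene *Hbb-bs* was at 308, 136 and 571 at D0 and at a mean of 999 at D5, not called. *Alas2*, also of red cells, was at 29.8 ± 13.3 and 34 ± 15.4 and was not called. The amount of blood left in the tissue was not tested.

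**Figure D2:**
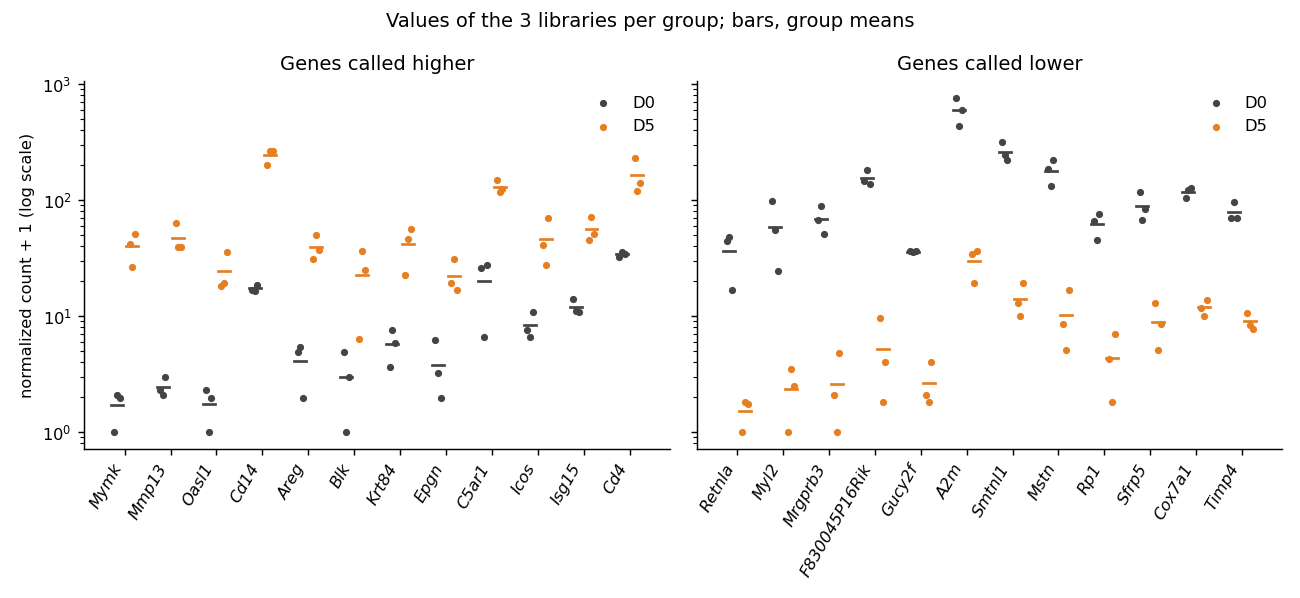
Values of the 3 D0 libraries (dark) and 3 D5 libraries (orange) as normalized count plus 1 on a log axis, for the 12 named genes with the highest and the 12 with the lowest log2 change among those called, with a mean of at least 10, a value in each library and no second gene in the count. Bars are group means. The D0 and D5 points of each gene do not overlap. The genes were chosen for their large changes in the same libraries, so this is no separate evidence.

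For genes whose D5 libraries could be read, the calls can be set beside the spread between animals. The posterior probability was computed from the same libraries, so this is no independent check of the calls. Of the 2496 such genes with a mean of at least 10, the 3 D5 values lay all above or all below the 3 D0 values for 1641 (65.7%), all above for 754 (30.2%) and all below for 887 (35.5%). Of the 893 among them that the posterior probability called, 874 were apart in this way (97.9%), and 19 overlapped. limma on log2(normalized count + 1), with Benjamini-Hochberg adjustment and an adjusted p under 0.05, called 1465 of the 2496 (58.7%), 695 higher (27.8%) and 770 lower (30.8%). It called 891 of the 893, with none in the opposite direction, and 574 more. A gene that was not called here has thus not been shown to be unchanged. The 2496 genes are of low level, 16.3% of all with a mean of at least 10, and stand for no others. The limit on reads fell on the D5 mean and not on the D0 mean. A strong rise could leave a gene out (*Arg1*, 22.4 to 1189), while a gene with a strong fall could stay in (*A2m*, 599 to 29.1). The shares higher and lower among them therefore do not stand for the whole table.

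The matrix of the wound bed made up a further large group. Of 10 fibrillar collagen genes, 8 were higher, 1 lower and 1 not called, with a median of 2.24, and their sum was 39024 to 55288 in the D0 libraries and 237454 at D5. *Col1a1* and *Col1a2*, the chains of type I collagen, rose 5.77-fold (8157, 6545 and 9753 to 47044) and 4.94-fold (12224 ± 1793 to 60410), and *Col3a1* 4.53-fold (22213 ± 4443 to 100678). *Col5a1* and *Col5a2*, chains of the collagen that starts fibril assembly, rose 7.39-fold and 6.16-fold. *Col24a1* was at 54.8, 42.2 and 40.3 at D0 and at 114, 94.7 and 138 at D5. *Col11a2*, a cartilage collagen, was the member that fell (400 ± 56.6 to 175). The other fibril-associated collagens split, with 7 higher, 6 lower and 6 not called of 19. *Col12a1*, which decorates type I fibrils, rose 10.3-fold, and *Col6a3*, *Col6a1* and *Col6a2*, chains of the beaded type VI collagen, rose 4.97-fold, 2.75-fold and 2.69-fold. *Col22a1*, a collagen of muscle and tendon junctions, fell 4.38-fold and the cartilage gene *Col9a3* 2.46-fold.

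Enzymes and chaperones that fold and cross-link collagen were called in 24 of 26 cases, 20 higher and 4 lower, with a median of 1.11. *Serpinh1* (HSP47, the collagen chaperone) rose 4.94-fold with tightly grouped D0 values of 594, 567 and 604 and a D5 mean of 2904. *Lox* and *Loxl1*, lysyl oxidases that start cross-links, rose 5.16-fold and 5.3-fold, *P4ha3*, a prolyl hydroxylase subunit, 12.7-fold, *P4hb* 2.92-fold, *P4ha1* 1.59-fold and *Sparc*, a collagen-binding matricellular protein, 1.75-fold. *Loxl4* fell from 1894, 1727 and 1648 to 317, and *Pcolce2*, an enhancer of procollagen cleavage, from 563, 544 and 540 to 188, 136 and 148, with a limma adjusted p of 1.5e-07. The lysyl oxidase genes named here thus differed in direction.

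The provisional matrix list had 21 higher, 3 lower and 5 not called of 29, with a median of 1.55. *Tnc* (tenascin C), an anti-adhesive protein of wound edges, rose 17.4-fold, from 1137, 971 and 1320 to 19849. *Tnn* (tenascin N) rose 42.4-fold from 21.3 ± 11.8 to 904, *Ccn4*, a secreted target of Wnt signalling, 22.1-fold from 29.6 ± 2.85 to 655, and *Cthrc1*, a secreted protein of activated fibroblasts, 13.1-fold from 39.9 ± 5.62 to 523. *Fn1* (fibronectin) rose 2.25-fold from 7998 ± 1047 to 17999, *Postn* (periostin) 2.65-fold and *Tgfbi* 1.93-fold. *Ccn2* (connective tissue growth factor) fell 1.51-fold from 2060 ± 220 to 1367, and *Vtn* (vitronectin) fell from 30, 24.4 and 40.3 to 14, 9.97 and 13.6. *Nell1* rose from 1.31, 1.11 and 0 (2 reads) to 14, 8.3 and 3.79, a ratio of 10.8 with a counting interval of 2.74 to 94.3. Among 29 genes of small leucine-rich proteoglycans and elastic fibres, 15 were higher, 8 lower and 6 not called, with a median of 0.53 (1.34 over the members the supplementary table names). The fibrillins *Fbn1* and *Fbn2*, which form the scaffold of elastic fibres, rose 4.21-fold (2761 ± 31.5 to 11624) and 7.34-fold, and *Ltbp2*, which binds fibrillin, rose 15.2-fold from 92.6, 88.7 and 86.5 to 1358. *Lum* (lumican), which regulates fibril width, rose 3.35-fold, while *Dcn* (decorin) was at 6541 ± 430 and 6307 and was not called. *Omd* (osteomodulin) fell 12.8-fold from 895, 1026 and 966 to 75.1, and *Ecm2* fell 4.5-fold.

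Basement membrane genes were 10 higher, 5 lower and 4 not called of 19, with a median of 0.69. *Col4a1* and *Col4a2*, the common type IV chains, rose 6.32-fold (876 ± 64.4 to 5539) and 4.23-fold, *Col18a1* 5.81-fold, *Hspg2* (perlecan) 2.04-fold and *Lamc1* 1.62-fold. The rarer chains went the other way: *Col4a6* fell 4.54-fold (420 ± 81.5 to 92.5) and *Col4a3* from 50.9, 50 and 69.8 to 11.9, 9.13 and 11.4. *Lama1* was at 27.4, 24.4 and 30.5 at D0 and at 27, 19.9 and 16.7 at D5 and was not called. Of 33 matrix proteases and inhibitors, 22 were higher, 3 lower and 8 not called, with a median of 1.22. *Mmp13*, a collagenase, was at 1.31, 1.11 and 1.97 at D0 (4 reads, Poisson interval of the mean 0.398 to 3.74) and at 62.6, 38.2 and 38.6 at D5 (limma log2 change 4.25 ± 0.40 (SE), adjusted p 5.9e-07). *Adam12* rose 38.4-fold from 40.9 ± 3.11 to 1570. The inhibitor *Timp4* fell from 69.2, 94.5 and 69.8 to 9.71, 7.47 and 6.82, and *Timp2* was at 2408 ± 102 and 2412, not called.

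Markers of mesenchymal and vascular cells were higher in part. Of 23 fibroblast genes, 9 were higher, 2 lower and 12 not called, with a median of 0.78. The share called was 47.8% beside 30.0% of all genes. Of the 23, 22 had a mean of at least 10, a level at which 6738 of 15310 genes were called. *Vim* (vimentin) rose 2.53-fold, *Pdgfra*, a receptor carried by most dermal fibroblasts, 1.99-fold, *Dpp4* 1.95-fold and *Pdpn* (podoplanin) 4.75-fold. *Prg4* (lubricin) rose 8.72-fold from 39.4, 77.4 and 26.8 to 417, *Thy1* was at 590 ± 49.9 and 731 and was not called, and the transcription factor genes *Tbx15* and *Tcf4* fell 1.83-fold and 1.36-fold. In the list of contractile and smooth muscle genes, 11 were higher, 5 lower and 7 not called of 23. *Acta2* (smooth muscle actin, a marker of myofibroblasts) rose 5.75-fold from 262, 189 and 198 to 1245, *Flna* 3.38-fold, *Tagln* 2.88-fold and *Myl9* 2.13-fold. *Synpo2* (483, 408 and 404 to 76.6, 93.8 and 91.6, limma adjusted p 1.1e-08), *Lmod1* (69.3 ± 30.4 to 17.7 ± 3.5) and *Des* (1812 ± 91.5 to 1052), genes that striated muscle also uses, fell. Endothelial and angiogenic genes had 22 higher, none lower and 10 not called of 32, with a median of 0.99, among them *Aplnr* (the apelin receptor, 5.69-fold), *Cdh5* (VE-cadherin, 2.35-fold), *Kdr* (VEGF receptor 2, 2.03-fold), *Dll4* (1.69-fold) and *Vwf* (1.3-fold).

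Genes of signalling pathways showed no common direction. For TGF-beta and activin, 12 of 26 were higher, 5 lower and 9 not called, with a median of 0.34. The ligand genes differed, *Tgfb1* (113 ± 6.27 to 264) and *Tgfb3* (376 ± 35.6 to 780) being higher and *Tgfb2* (363 ± 29.6 to 202) lower. *Eng* (endoglin), a co-receptor of endothelium, rose 2.77-fold and *Lrrc32*, which holds latent TGF-beta at the cell surface, 3.06-fold. *Mstn* (myostatin), a ligand made by muscle, fell from 184, 132 and 219 to 7.55, 4.15 and 15.9. The 36 Wnt and BMP genes had 8 higher, 13 lower and 15 not called, with a median of -0.67. The ligand *Wnt5a* rose 3.02-fold from 148 ± 29.9 to 447, *Wnt3* fell 1.65-fold and *Wnt10a* was at 105 ± 16.1 and 145, not called. Secreted antagonists moved both ways. *Sfrp2* rose 5.27-fold from 114 ± 19.6 to 603. *Frzb* fell 14.2-fold from 551, 537 and 553 to 38.5, *Wif1* 6.97-fold from 3724 ± 298 to 534, and *Sfrp5* from 117, 66.7 and 82.6 to 11.9, 4.15 and 7.57. Of 34 growth factor ligand genes, 11 were higher, 5 lower and 18 not called, a share of 47.1% called beside 30.0% of all genes. Of the 34, 33 had a mean of at least 10, a level at which 6738 of 15310 genes were called. *Igf1* rose 1.83-fold and *Epgn* (epigen) from 5.22, 2.22 and 0.984 to 18.3, 29.9 and 15.9. *Fgf1* fell from 200, 241 and 217 to 87.4, 31.6 and 51.5 and *Btc* (betacellulin) 3.62-fold. The wound ligands *Fgf7* (125 ± 8.43 and 140), *Fgf10* (26.3 ± 5.88 and 13.7) and *Fgf2* (26.6 ± 5.26 and 9.55) were not called. *Lgi2* and *Lgi3*, secreted leucine-rich glioma-inactivated proteins, were at 11.7, 0 and 5.9 and at 2.61, 2.22 and 4.92 at D0 and rose to 66.6 and to 18.3, 13.3 and 7.57 at D5.

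Genes of the cell cycle were higher by moderate amounts. In S phase, 18 of 28 genes were higher, 1 lower and 9 not called, with a median of 0.73, and in mitosis 19 of 27 were higher, 1 lower and 7 not called, with a median of 1.08. *Mcm5* and *Mcm2*, subunits of the replicative helicase, rose 3.58-fold and 2.87-fold, *Ccne1* (cyclin E1) 4.11-fold and *Pcna* 1.5-fold, while *Tyms* (thymidylate synthase) fell 1.7-fold. *Mybl2* rose 4.18-fold, *Ccnb1* (cyclin B1) 2.79-fold and *Top2a* 1.98-fold. *Aurkb* was at 30, 52.2 and 27.5 at D0 and at 99.2, 119 and 124 at D5. The proliferation marker *Mki67* rose only 1.26-fold, from 1851, 2412 and 1994 to 2622, and the kinase gene *Ttk* fell 1.36-fold. Of 19 inhibitors and p53 targets, 7 were higher, 5 lower and 7 not called. *Cdkn1a* (p21) was at 566 ± 52 and 665 and was not called, *Cdkn1b* (p27) fell 1.62-fold from 825, 820 and 798 to 504, *Cdkn1c* was at 92.3 ± 17.3 and 129 and was not called, and *Ccnd2* (cyclin D2) fell 2.75-fold. *Phlda3* rose 2.57-fold and *Gadd45g* from 17, 34.4 and 23.6 to 77.7, 59 and 65.1.

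The falls were led by striated muscle. Of 37 genes of mature skeletal muscle, 35 were lower, 1 higher and 1 not called, with a median log2 change of -2.94, against 13.6% of all genes that were lower. The summed level was 290441 to 357964 in the D0 libraries and 44157 at D5, a ratio of 0.136. *Ttn* (titin), the giant spring of the sarcomere, fell from 226466, 171426 and 187791 to 25384. *Myh4* (fast myosin) fell from 14567, 10782 and 20593 to 1509, *Ckm* (muscle creatine kinase) 9.01-fold, *Pvalb* (parvalbumin, a calcium buffer of fast fibres) 17.7-fold and *Acta1* (skeletal actin) 3.33-fold. The slow-fibre light chain *Myl2* was at 96.6, 54.4 and 23.6 at D0 and at 0, 2.49 and 1.51 at D5. *Smtnl1* (313, 244 and 222 to 11.9, 9.13 and 18.2, limma adjusted p 3.8e-09) and *Mstn*, genes of muscle outside the list, are also among the 10 genes with the largest falls. The mitochondrial subunits of muscle and brown fat *Cox7a1* (103, 121 and 125 to 10.8, 9.13 and 12.9) and *Cox8b* (9.19-fold) also fell. *Tnnc1*, the troponin C of slow and cardiac fibres and also of embryonic muscle, was the member that rose, from 24.8, 20 and 8.85 to 53.9, 33.2 and 62.9.

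Genes of muscle formation had another pattern, with 6 higher, 4 lower and 9 not called of 19 and a median of 0.17, which turned to -0.69 over the members the supplementary table names. *Mymk* (myomaker), which myoblasts need for fusion, was at 0, 1.11 and 0.984 at D0 (2 reads) and at 41, 25.7 and 50 at D5, a ratio of 55.7 with a counting interval of 14.2 to 438 and a limma adjusted p of 1.8e-06. *Myog* (myogenin), which drives myoblasts to differentiate, rose 10.9-fold from 8.27 ± 2.14 to 90.3. *Myf6*, a regulator of mature fibres, fell from 73.1, 101 and 78.7 to 19.4, 14.9 and 25.7, and *Mef2c* fell 2.59-fold. *Pax7*, the marker of satellite cells, was at 20.9, 23.3 and 16.7 at D0 and at 5.39, 4.15 and 5.3 at D5. Its groups do not overlap and limma gave an adjusted p of 0.00066, but its posterior probability was 0.0002, so it was not called. *Myod1* was at 19.3 ± 6.32 and 21.6 and was not called.

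**Figure D3:**
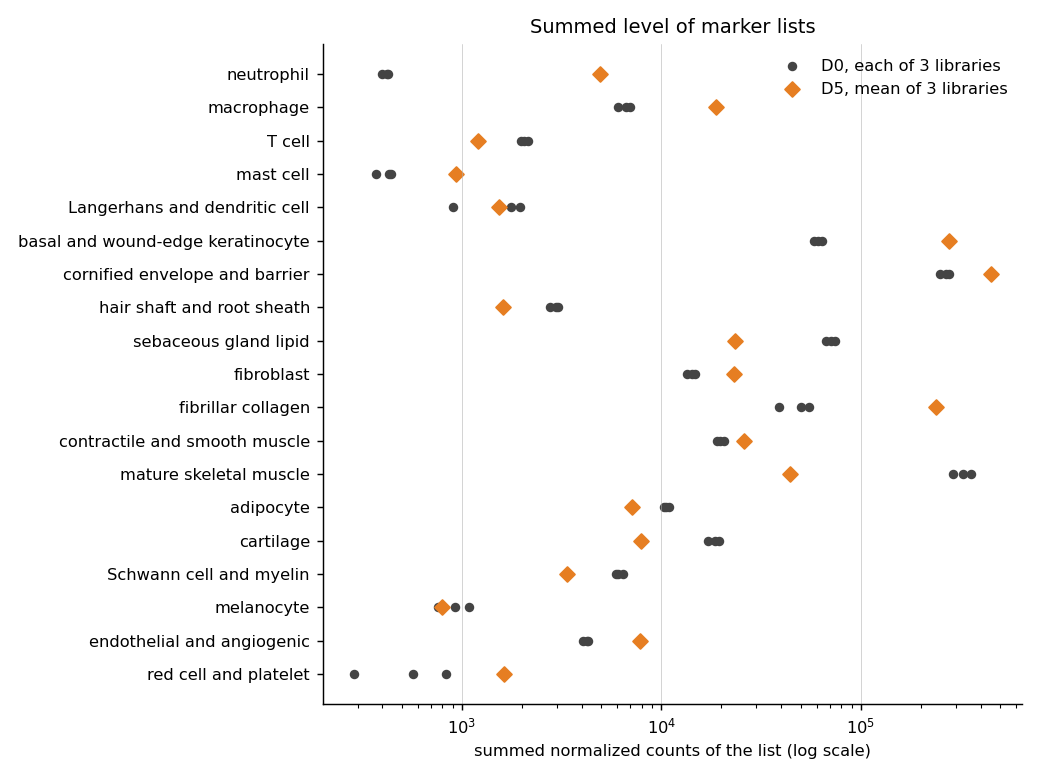
Summed normalized counts of marker lists on a log axis, with 1 dark point for each of the 3 D0 libraries and an orange diamond for the D5 mean. The neutrophil sum goes from 397 to 428.2 up to 4930, and the muscle sum from 290441 to 357964 down to 44157, while the sum for Langerhans and dendritic cells (1540 at D5) lies between the lowest and the highest D0 library (901.7 and 1964) and under the other (1765), the lowest being the library with *H2-Eb1* at 19.6.

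Other tissues of the pinna were lower in part. Of 26 sebaceous gland lipid genes, 16 were lower, none higher and 10 not called, with a median of -0.72. *Scd1*, the desaturase that sebocytes need, fell 6.05-fold from 47589, 40184 and 43470 to 7229, *Scd3* 10.8-fold from 479 ± 19.4 to 44.2, and *Mc5r*, a melanocortin receptor of sebaceous glands, from 48.3, 44.4 and 57.1 to 7.55, 5.81 and 6.06. *Fasn* (fatty acid synthase) fell 1.27-fold and *Acsbg1* 1.34-fold. Cholesterol synthesis genes had 3 higher, 7 lower and 9 not called of 19, with a median of -0.21. *Sqle* (squalene epoxidase) was at 856 ± 41.9 and 1102 and was not called, while *Hmgcs1* fell 1.71-fold, *Msmo1* fell 2.01-fold and *Mvk* rose 1.61-fold. Adipocyte genes had 14 lower, 1 higher and 8 not called of 23, with a median of -1.52. *Adipoq* (adiponectin) fell from 116, 109 and 114 to 45.3, 26.6 and 32.6, *Plin1* (perilipin 1) from 138, 107 and 100 to 24.8, 44 and 31, *Slc2a4*, the insulin-regulated glucose transporter of fat and muscle, 6.97-fold and *Acsl1* 1.37-fold. *Cebpa*, which other cells also use, rose 1.79-fold.

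Cartilage genes had 15 lower, 5 higher and 6 not called of 26, with a median of -0.90 (-0.77 with the gene listed at 0 in a group at its bound). *Cytl1* fell 7.86-fold from 5417, 7321 and 6041 to 796, *Acan* (aggrecan) 2.59-fold from 4322, 3436 and 3274 to 1419, and *Cnmd* (chondromodulin) from 440, 382 and 397 to 76.6, 64.8 and 72.7, with a limma adjusted p of 4.1e-09. *Col2a1*, the main collagen of cartilage, went the other way and rose 2.81-fold from 226, 177 and 130 to 499, and *Matn3* (matrilin 3) rose from 20.9, 23.3 and 11.8 to 25.9, 35.7 and 40.1. Among 22 Schwann cell and myelin genes, 10 were lower, none higher and 12 not called, with a median of -0.99. The share called was 45.5% beside 30.0% of all genes. Of the 22, 18 had a mean of at least 10, a level at which 6738 of 15310 genes were called. *Cldn19* fell 10.4-fold from 70.5, 53.3 and 57.1 to 5.79, *Pmp22* 2.16-fold, *Mbp* 1.83-fold and *L1cam* 1.49-fold, while *Erbb3*, which epithelia also carry, was at 952 ± 76.8 and 1165 and was not called. Of 17 neurofilament and axonal genes, 14 were not called, a share of 17.6% called beside 30.0% of all genes. The list median turned from -0.19 to 0.24 over members with a mean of at least 10. *Nefl*, *Nefm* and *Nefh* had means of at most 6.08 in either group, *Tubb3* rose 23.9-fold from 13.1, 5.56 and 4.92 to 187, and *Rab3c* fell 4.79-fold. Of 12 melanocyte genes, 4 were lower, 1 higher and 7 not called, a share of 41.7% called beside 30.0% of all genes. Of the 12, 8 had a mean of at least 10. *Tyr* (tyrosinase) was 1.45-fold, *Pmel* 2.3-fold and *Slc24a5* 2.4-fold lower, and *Ednrb* was 1.96-fold higher.

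Hair follicle genes were for the most part not called at D5. Of 33 genes of the hair shaft and root sheath, 24 were not called, 3 were higher and 6 lower, a share of 27.3% called beside 30.0% of all genes. Keratins of the inner sheath and shaft were at low and uneven levels. *Krt71* was at 36.6, 54.4 and 7.87 at D0 and at 43.1, 19.1 and 8.33 at D5, *Krt25* at 41.5, 47.8 and 2.95 and then at 22.6, and *Krt35* at 1.31, 6.67 and 0 and then at 8.63, 1.66 and 4.54, none of them called. *Krt84* rose from 2.61, 6.67 and 4.92 to 21.6, 44.8 and 55.3 and *Tchhl1* from 10.4, 5.56 and 0 to 20.5, 15.8 and 12.1. *Msx2*, a homeobox factor of the hair matrix, fell 4.68-fold from 95.4, 97.6 and 118 to 22.1. Of 14 follicle stem cell genes, 5 were lower and none higher, a share of 35.7% lower beside 13.6% of all genes. All 14 had a mean of at least 10, a level at which calls were more frequent than over all genes. *Lgr6* fell 2.58-fold, *Foxc1* from 168, 186 and 187 to 75.5, 82.2 and 81.8, *Tcf7l2* 1.69-fold and *Gli1*, a readout of Hedgehog signalling, from 61.1 ± 11.5 to 39.5 ± 9.85. *Lgr5* was at 79 ± 13.1 and 131 and *Cd34* at 821 ± 53.8 and 770, neither called. *Lhx2* was at 31.3, 31.1 and 31.5 at D0 and at 9.71, 7.47 and 13.6 at D5 and, like *Pax7*, was not called at a posterior probability of 0.0007 although limma gave an adjusted p of 0.00054.

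Genes of glycolysis were mostly higher. Of 25 glycolysis and hypoxia genes, 23 were higher, 1 lower and 1 not called, with a median of 0.93 (1.74 over the members the supplementary table names) and a sum of 24552 to 27853 in the D0 libraries and 46286 at D5. *Ldha* (lactate dehydrogenase A) rose 2.78-fold from 1304, 1419 and 1502 to 3919, *Pgk1* 3.39-fold, *Pkm* 2.45-fold, *Hk2* 1.62-fold and *Gpi1* 1.14-fold. *Slc16a3*, which exports lactate, rose 4.48-fold and *Ankrd37*, a target of hypoxia-inducible factor, 4.17-fold. The member that was lower was *Aldoa*, an aldolase that muscle makes in large amounts, which fell 1.31-fold. Oxidative phosphorylation genes were divided, with 9 higher, 11 lower and 10 not called of 30 and a median of -0.01. *Cyc1* and *Cox6a1* rose 1.71-fold and 1.67-fold and *Atp5b* 1.22-fold, *Ndufs1* and *Sdha* fell 1.25-fold and 1.3-fold, and *Atp5a1* was not called. Of 23 chaperones and stress genes of the endoplasmic reticulum, 18 were higher, 3 lower and 2 not called, with a median of 0.67. *Hspa5* (BiP) rose 1.92-fold from 1598, 1573 and 1605 to 3049, *Calr* 1.88-fold and *Canx* 1.16-fold. *Trib3* was at 35.2, 28.9 and 32.5 at D0 and at 122, 135 and 114 at D5. *Ddit3* (CHOP), a gene of sustained stress, fell from 82.2, 65.6 and 97.4 to 48.5, 51.5 and 61.3 and *Dnajb9* fell 1.42-fold. Ribosomal protein genes had 15 higher, 1 lower and 8 not called of 24, with a median of 0.44. *Rps2* rose 2.52-fold, *Rpl3* 1.47-fold, *Rplp0* 1.46-fold and *Rpl7* 1.24-fold, *Rps6* was not called and *Rps24* fell 1.68-fold. Ribosomal protein genes have many processed copies in the genome, so single values are uncertain.

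Immediate early and heat shock genes showed how the D0 animals varied. Of 20, 6 were higher, 2 lower and 12 not called, with a median of 0.13. Over all genes, 30.0% were called, 16.5% higher and 13.6% lower. All 20 members had a mean of at least 10, a level at which 6738 of 15310 genes were called. *Fos* was at 663, 107 and 63.9 in the D0 libraries, *Egr1* at 544, 264 and 185 and *Atf3* at 128, 33.3 and 46.2, so that 1 library was the highest for all 3 genes, and none of the 3 was called. *Junb* rose 2.59-fold, *Hmox1* (heme oxygenase 1) 5.05-fold from 243, 266 and 203 to 1197, *Klf4* was at 2640 ± 136 and 3514 and was not called, and *Myc* and *Hspb1* fell 1.45-fold and 1.39-fold. The circadian clock list had 12 lower, 2 higher and 3 not called of 17, with a median of -0.85. *Hlf* fell 3.12-fold from 1830, 1725 and 1734 to 565, *Dbp* 2.41-fold, *Tef* 1.77-fold and *Arntl* (BMAL1) 1.61-fold. *Nfil3*, a repressor of the genes that DBP activates, rose 3.93-fold from 20.9, 24.4 and 43.3 to 116 and *Bhlhe40* 1.99-fold, while *Per1* was at 504 ± 50.2 and 390 and was not called. The hour of tissue collection is not given in the sources used here and its part in these values was not tested.

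**Figure D4:**
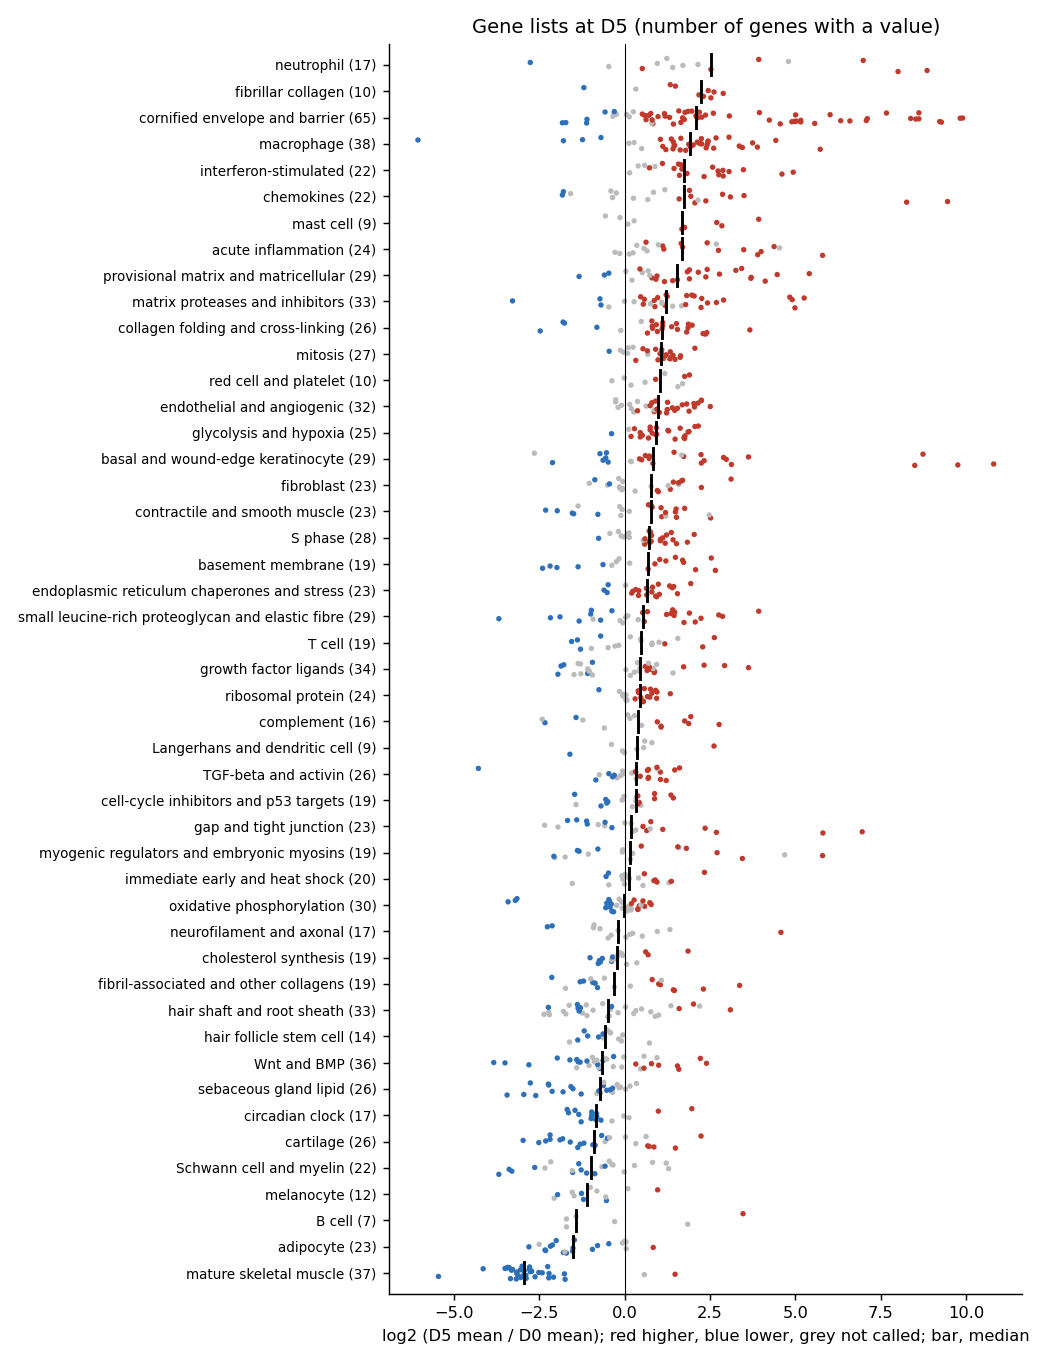
Log2 change at D5 of each member of the 47 gene lists, ordered by list median (black bar), with the number of genes with a value in parentheses. Red points were called higher, blue lower and grey not called. The muscle list lies lowest, with a median of -2.94, and the lists for neutrophils (2.53, or 1.71 with genes listed at 0 in a group set at their bound), fibrillar collagens (2.24) and the cornified envelope (2.09) lie highest as drawn.

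Outside these lists, *A2m* (alpha-2-macroglobulin, a protease inhibitor, on chromosome 6) fell from 762, 434 and 599 to 33.4, 18.3 and 35.6 (limma log2 change -4.33 ± 0.24 (SE), adjusted p 3.8e-09). *Mrgprb3*, of a receptor family found on sensory neurons and mast cells, fell from 66.6, 87.8 and 50.2 to 1.08, 0 and 3.79, and *F830045P16Rik* from 145, 180 and 137 to 8.63, 0.83 and 3.03. *Erbb4* (19.9-fold), a receptor of neuregulins, *Otoa* (18.3-fold), *Gucy2f* (35.2, 34.4 and 35.4 to 1.08, 0.83 and 3.03) and *Rp1* (65.3, 44.4 and 74.8 to 3.24, 0.83 and 6.06) complete the 10 largest falls if each group must reach a mean of 1, a limit that leaves out *Retnla*. D0 values of these genes were well above the D5 values in every library that could be read. The genes were chosen as the largest falls in the same libraries, so this is no separate evidence. The RNA with the highest D5 mean maps to the locus annotated *Gm26917* on chromosome 17, which lies at a copy of ribosomal precursor RNA, and went from 95942, 101260 and 75236 to 206078, a 2.27-fold rise. The labels name a step that reduced ribosomal RNA in these libraries, so this value is not read as a gene's expression, and its part in other values was not tested. The 10 genes with the highest means took 15.27% of the summed D0 means and 12.02% of the D5 means. *Ahnak*, a large scaffold protein gene, fell 1.13-fold and *Malat1*, a nuclear RNA, was at 124137 ± 4422 and 119059 and was not called.

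The later days were compared with the same D0 libraries, so the 4 comparisons are not independent, and their values are set side by side only. Values are given below for D5 first and then for the 3 later days in turn. *Krt6b* and *Krt16* stood highest above D0 at D5, with log2 changes of 10.81, 8.62, 7.16 and 3.14 for *Krt6b* and of 9.76, 7.71, 6.38 and 3.76 for *Krt16*. *Krt14* was called at D5 alone (2.25, then 0.95, 0.38 and -0.29). *S100a9* went from 8.86 to 6.79, 6.59 and 1.51, the last not called. The median of the interferon list was 1.75, then 1.02, 1.01 and 0.17, with 18, 2, 7 and 0 genes higher. The glycolysis list had medians of 0.93, 0.37, 0.47 and -0.11, and the mitosis list of 1.08, 0.76, 0.60 and 0.02.

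The medians of both collagen lists were lower at D5 than later, although single members such as *Col11a2* (-1.19, then -0.40, -0.24 and 0.48) stood furthest from D0 at D5. *Col1a1* had a log2 change of 2.53 at D5 and of 3.72, 3.75 and 3.89 later, and the fibrillin gene *Fbn2* of 2.87 and then 4.56, 4.76 and 4.43. The list medians were 2.24, 2.92, 3.19 and 3.19 for fibrillar collagens and -0.30, 0.99, 1.02 and 0.99 for the fibril-associated ones. Mast cell genes also had a lower median at D5 (1.68) than on the later days (1.88, 2.26 and 2.41). Muscle stayed low, with medians of -2.94, -2.80, -3.02 and -3.07. *Mymk* was called higher at D5, D10 and D15 (5.80, 5.26 and 4.20), and *Myog* at D5 and D10 (3.45 and 2.80). Schwann cell and myelin genes had medians of -0.99, -0.89, -0.64 and -0.27. Hair shaft and root sheath genes differed widely between D5 and the later days. Their median was -0.49 at D5 and 4.49, 6.46 and 6.67 later, with 3, 23, 25 and 27 genes higher, and *Krt71* had changes of -0.49, 5.87, 7.52 and 7.86.

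**Figure D5:**
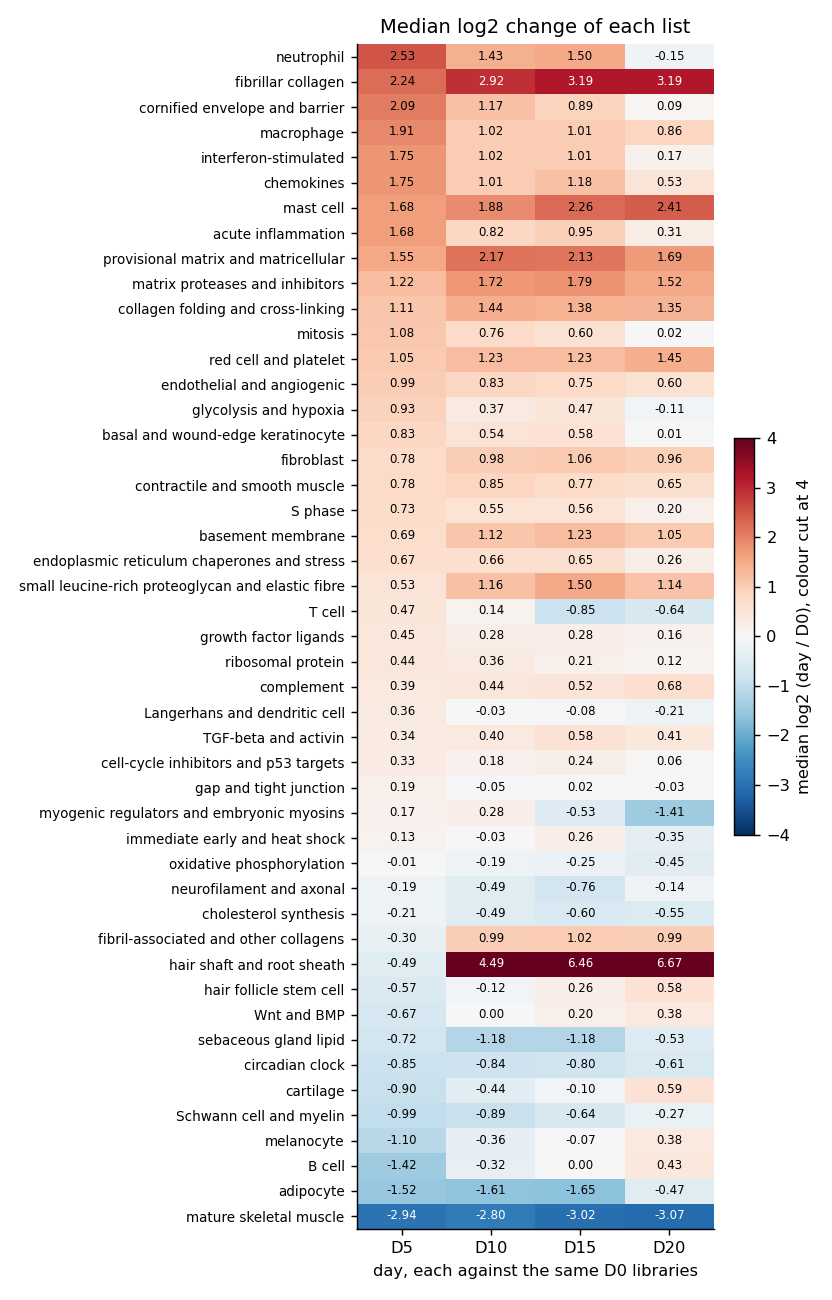
Median log2 change of each gene list on the 4 days (columns), each against the same D0 libraries, with lists ordered by the D5 median and colour limited at 4 in size. The hair shaft row turns from -0.49 at D5 to 6.67 at D20, and the muscle row stays between -2.80 and -3.07.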

How the data were processed

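Paired-end 50-base reads of ribosome-depleted, strand-specific libraries had been mapped by the authors with RSEM and Bowtie to mm10 transcripts, and D5 had been compared with D0 by EBSeq at an FDR of 0.05 (3 libraries per group). The deposited table gives 2 fold changes of the authors, a ratio of normalized D0 and D5 means and a posterior fold change in which a constant is added to both means, and the authors' posterior probability of differential expression, a score from 0 to 1 that is used here as the call. As the study's counts were not analysed here, the group means were recovered from both ratios, and values per library from the reads behind the means, D0 by least squares over 4 tables that share it (for 9398 genes the reads, which RSEM estimates, were not whole) and D5 from whole reads for 8148 genes. Of 8929 D0 genes with whole reads solved from the D5 table alone, 100.00% had the same values. On simulated data with known whole reads, 99.97% of D0 and 100.00% of D5 values were right. Neither check covers the values per library of the 9398 genes whose D0 reads were not whole. Genes carry numbers in the table. Names came from 1992 known numbers and the order of the 61642 reference transcripts, matched to the GRCm38 annotation with minimap2 2.31. Of known numbers held out, 1791 were placed, 99.1% of them rightly. For D5, 20035 genes were named, and 1069 of 1159 list genes had a value. For 559 numbers, a transcript counted also matches another protein-coding gene. limma 3.58.1 was fitted to genes with values per library and a mean of at least 10. On simulated data it recovered 47 of 50 genes lowered 4-fold, 54 of 100 changed 2-fold, and called 11 of 2284 unchanged genes. The members and the 47 lists were chosen with earlier results of these data known. Named genes are the 10 largest rises and falls among those called with a mean of at least 10 over both groups and 1 in each, the first 3, the 2 highest and 2 lowest called and the highest of each list, the 10 with the highest D5 mean, and those the study names. Alternatives were another posterior threshold, filters, scalings, pseudocounts and names from the known numbers alone.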

Additional observations from a re-analysis of the deposited data

How the results depend on the processing

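Asking for a log2 change of at least 1 in size left 3076 genes called, 1688 higher and 1388 lower. A stricter threshold, a soft threshold, a least mean of 10 and named genes alone left each count within 1.5 times of 6917, 3791 and 3126. Scalings of the means cannot change the posterior probabilities and so do not test these counts. With members of a mean of at least 10 the list median turned to 3.47 for B cells (from -1.42, with 1 gene left) and to 0.24 for neurofilament and axonal genes (from -0.19). With names from the supplementary table alone it turned to -0.69 for myogenic regulators (from 0.17) and to -0.28 for gap and tight junctions (from 0.19). These lists have no common direction, and the cause was not tested further. No other list median was counted as changing sign, a count that left out changes where either value was close to 0. However, 10 values of list medians and 20 of named genes moved by more than 1.5 times as a fold. Of these, 17 moved with a pseudocount of 1 and 6 with the posterior fold change. Another 5 moved with names from the supplementary table alone and 2 with members of a mean of at least 10. The neutrophil median went from 2.53 to 1.61, 1.67 and 5.46 under a pseudocount, the posterior fold change and that least mean. With the supplementary names alone the medians went to 0.50 from 1.91 for macrophages and to 0.52 from 2.09 for the cornified envelope. The limma fit, added after seeing the data, called 1302 to 1347 genes with 1 library left out, 614 to 652 of them higher and 677 to 726 lower, and 1494 with a pseudocount of 10. Genes with 0 to 3 reads in a group have wide intervals. No paired analysis was possible because the labels give 1 sample per group, all with the same number, and the values per library carry none.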

Other observations

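Genes that the posterior probability left out were not spread evenly. Of the 574 genes that limma alone called, 395 (68.8%) had a posterior probability under 0.01, and 11062 of the 23023 genes of the table had one that low. Among genes with values per library, the variance between the libraries of a group, pooled over D0 and D5, was set against the mean, a ratio of 1 being that of counting noise. Where the ratio was at most 1, 636 of 796 genes had a posterior probability under 0.01 and 115 were called, whereas limma called 438. For a ratio over 1 and at most 2 it was 282 of 763 genes, with 256 called and 434 by limma. Over 2 it was 0 of 937 genes, with 522 called and 593 by limma. *Pax7* and *Lhx2* are examples of genes with tightly grouped libraries that did not overlap between D0 and D5 and were not called. This comparison was chosen after seeing the data, and its cause was not tested.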
